A study of Mus musculus with 2 samples.

Results

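Ligands of the bone morphogenetic protein (BMP) family and genes that respond to them were compared between ureters labelled knockout for Tbx2 and Tbx3 and control ureters of E14.5 mouse embryos. The 10 genes were 5 ligands (Bmp2, Bmp4, Bmp5, Bmp6 and Bmp7) and 5 response genes (Id1, Id2, Id3, Id4 and Smad6). They were found through the transcript accession that the array gives for each probe. This gave 11 of 39429 probes measured on both arrays. Each gene had a probe that passed the filter on dim spots, so 10 of the 20629 genes tested belonged to the group. The probe left out was a second one for Bmp4, which was well above background in none of the 4 RNAs.

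All embryos were of the NMRI strain. Ureters labelled knockout were Tbx18(cre/+) and homozygous for floxed alleles of both targets, Tbx2(fl/fl) and Tbx3(fl/fl). Controls were Tbx18(+/+) with the targets given as Tbx2(fl/?) and Tbx3(fl/?), so they lacked Cre and 1 allele of each target is not specified. Cre and the Tbx18 genotype thus differ between the groups together with the targets, and their effects cannot be told apart. Cre recombinase expressed from the Tbx18 locus acts in the lineage of the ureteric mesenchyme, not in every cell of the ureter. The 4 RNAs were hybridised on 2 two-colour arrays as pairs of labelled knockout and control. The female pair had the labelled knockout RNA in AlexaFluor647 and the male pair had it in AlexaFluor555, so effects of sex and of dye cannot be told apart. The labels do not say whether embryos were pooled, so p-values speak for these samples only. Each p-value rests on the spread of a gene between the 2 pairs, moderated by the spread over all genes tested.

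Between 64.3% and 71.6% of spots were well above background in each channel, 0 spots were saturated, and both files gave the same slide and scan. Of the targets, Tbx3 fell (-1.09 ± 0.10) while Tbx2 rose (0.86 ± 0.12, log2 fold changes, SD over 2 pairs), and the Tbx2 transcript thus goes against the genotype. The files do not place the probes relative to the floxed exons, so the RNAs are called labelled knockout throughout. At an adjusted p under 0.05 by limma, 385 genes rose and 374 fell, or 3.68% of those tested.

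BMPs are secreted signals of the TGF-beta superfamily. They bind pairs of serine/threonine kinase receptors, which phosphorylate SMAD1, SMAD5 and SMAD9, and these enter the nucleus with SMAD4 to switch on target genes. The Id genes and Smad6 are among the best known direct targets in many cell types. Id proteins are helix-loop-helix proteins without a DNA-binding region, which bind and block transcription factors such as the E proteins, while SMAD6 dampens the BMP receptors as feedback. In the developing ureter, BMP4 is made by the mesenchyme around the epithelium and is known to be needed for smooth muscle formation.

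The ligands went in different directions. Bmp4 and Bmp6 rose, Bmp2 and Bmp5 were lower in both pairs without passing the threshold, and Bmp7 had opposite signs in the pairs. Thus 2 of 5 ligands rose and 0 fell, where 1.87% of all genes tested were higher and 1.81% were lower. Of the response genes Id4 fell, Id2 was lower in both pairs without passing, and Id1, Id3 and Smad6 were within 0.10 log2 units of 0. So 0 of 5 response genes rose and 1 fell by limma. An unadjusted p under 0.05 was seen for 2 (Id2 and Id4), where the share over all genes tested was 14.1%.

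Levels are given as log2 intensities per RNA, after loess within each array and alignment of mean intensities between arrays, and are not comparable between genes. Bmp4, the ligand for which a role in the ureteric mesenchyme is best known, had log2 intensities of 17.10 (female) and 17.06 (male) in ureters labelled knockout, against 16.73 and 16.72 in controls. Both labelled knockout RNAs lay above both controls, as for 17.9% of genes tested. The log2 fold change was 0.37 (female pair) and 0.34 (male pair), a mean of 0.36 ± 0.026 (SD, n = 2 pairs), or 1.28-fold, with an adjusted p of 0.0426 by limma. All 4 spots of the probe were above 0 on each array, from 0.35 to 0.39 on the female array and from 0.28 to 0.37 on the male array. The call ended under 5 of 12 alternatives, with adjusted p-values between 0.0229 and 0.616. When arrays were median-centred without loess, the pairs differed more, at 0.75 (female) and 0.070 (male).

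Bmp6, a close relative of Bmp5 and Bmp7, had log2 intensities of 10.78 and 10.77 in ureters labelled knockout, against 10.31 and 10.28 in controls. This was the largest rise among the 5 ligands, with the smallest distance between pairs. The log2 fold change was 0.47 (female pair) and 0.49 (male pair), a mean of 0.48 ± 0.015 (SD, n = 2 pairs), or 1.39-fold, with an adjusted p of 0.0141 by limma. Its spots ran from 0.41 to 0.52 on the female array and from 0.44 to 0.53 on the male array. The call was kept under 10 of 12 alternatives and ended with median centring and with the deposited value table.

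Bmp2, the ligand closest to Bmp4 in sequence, had log2 intensities of 9.23 and 9.13 in ureters labelled knockout, against 9.66 and 9.42 in controls. Both labelled knockout RNAs lay below both controls, as for 17.7% of genes tested. The log2 fold change was -0.43 (female pair) and -0.29 (male pair), with a mean of -0.36 ± 0.10 (SD, n = 2 pairs) and an adjusted p of 0.0524 by limma. Bmp5, a ligand of the same subgroup as Bmp6 and Bmp7, had log2 intensities of 11.61 and 11.92 in ureters labelled knockout, against 12.18 and 12.21 in controls. These groups did not overlap either, but the female pair differed more, at -0.56, than the male pair, at -0.29. Its mean of -0.43 ± 0.19 (SD, n = 2 pairs) had an adjusted p of 0.0543 by limma. Both genes lay just outside the threshold, and some alternatives moved them inside it, 3 of 12 for Bmp2 and 4 of 12 for Bmp5. One of these counted each probe by itself, where 3.8% of all probes passed.

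Bmp7, which in kidney development keeps nephron progenitors alive, had log2 intensities of 10.52 and 10.38 in ureters labelled knockout, against 10.41 and 10.58 in controls. The groups overlapped, since the labelled knockout RNA was the higher of the female pair (0.11) and the lower of the male pair (-0.20). The mean log2 fold change of -0.044 ± 0.22 (SD, n = 2 pairs) had a 95% interval from -0.26 to 0.17. A fall or a rise within those limits is thus not excluded by these arrays.

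**Figure D1:**
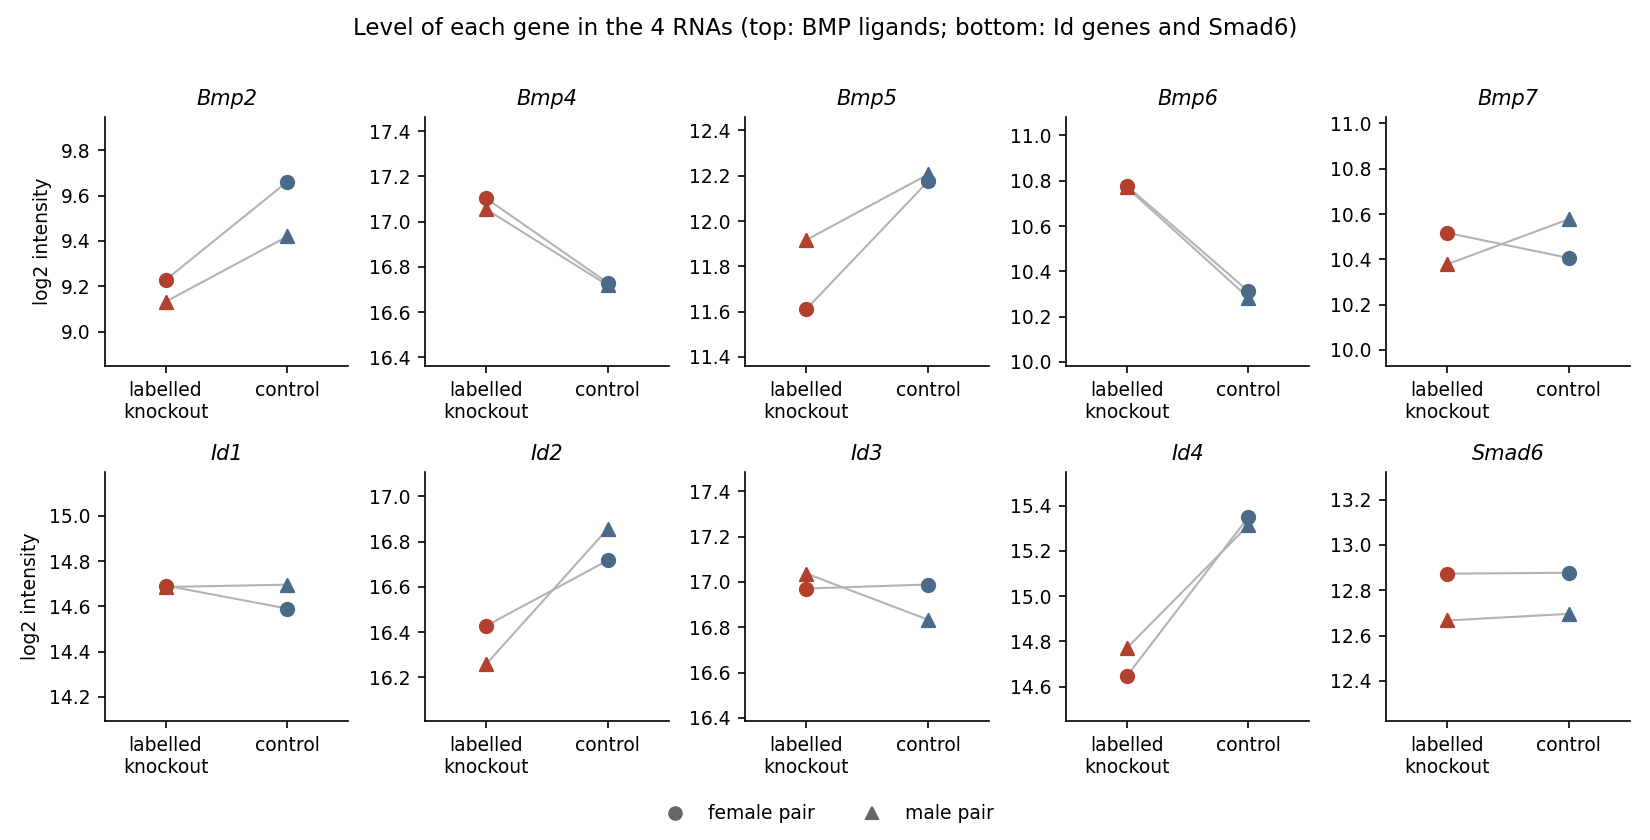
Log2 intensity of each of the 10 genes in the 4 RNAs, with labelled knockout left of control and a line joining the RNAs of an array (circles, female pair; triangles, male pair). Each panel spans the same number of log2 units around its own midpoint. Labelled knockout and control RNAs do not overlap for Bmp2, Bmp4, Bmp5, Bmp6, Id2 and Id4. The share over all genes tested was 35.6%.

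Promoter sequences are shown for the genes past the threshold, here the ligands Bmp4 and Bmp6. They are the 250 bases before the transcription start, 5′ to 3′ on the gene's strand, from RefSeq for GRCm38.p6. An entry was found for 7 of the 10 genes, without Bmp2, Bmp7 and Id1. Capitals mark the motif GGTGTG, the core of the sequence that T-box factors bind, or GGCGCC, a GC-rich sequence bound by SMAD proteins. Both strands were searched, and the motifs share no position in these windows. Bmp4 lies on chr14:46390670-46390919 on the minus strand and held neither motif. Bmp6 lies on chr13:38345466-38345715 on the plus strand and held 1 copy of the T-box core, read as CACACC, from 53 bases before the start.
Bmp4: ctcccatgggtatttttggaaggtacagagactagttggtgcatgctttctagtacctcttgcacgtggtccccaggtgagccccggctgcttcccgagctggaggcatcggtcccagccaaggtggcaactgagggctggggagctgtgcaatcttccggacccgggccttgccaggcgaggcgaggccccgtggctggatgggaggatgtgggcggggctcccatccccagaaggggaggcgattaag
Bmp6: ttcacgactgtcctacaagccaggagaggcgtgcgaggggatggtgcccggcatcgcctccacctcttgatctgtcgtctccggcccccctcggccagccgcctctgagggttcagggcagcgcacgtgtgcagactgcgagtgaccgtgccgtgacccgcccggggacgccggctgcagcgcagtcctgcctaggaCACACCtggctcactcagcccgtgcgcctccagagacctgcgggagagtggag
The T-box core was present in 16.3% of 32851 promoter windows of this length, so a single match is common. Whether the factor binds there was not measured.

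Id4 showed the largest change of the 10 genes. It is best known from the developing nervous system. Its log2 intensities were 14.65 and 14.77 in ureters labelled knockout, against 15.35 and 15.31 in controls. The groups did not overlap, as for 35.6% of genes tested. The log2 fold change was -0.70 (female pair) and -0.54 (male pair), a mean of -0.62 ± 0.11 (SD, n = 2 pairs), with an adjusted p of 0.00828 by limma. The level in controls was thus 1.54-fold that in ureters labelled knockout. Spots ran from -0.75 to -0.65 on the female array and from -0.55 to -0.54 on the male array. Like Bmp6, Id4 kept its call under 10 of 12 alternatives and lost it with median centring and with the deposited value table, where its adjusted p was 0.0652.

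Id2, which restrains differentiation in many progenitor types, had log2 intensities of 16.43 and 16.26 in ureters labelled knockout, against 16.72 and 16.86 in controls. Both labelled knockout RNAs were below both controls, as for 17.7% of genes tested. The male pair (-0.60) differed more than the female pair (-0.29). The mean log2 fold change was -0.44 ± 0.22 (SD, n = 2 pairs) and its adjusted p 0.0565 by limma. Under 3 of 12 alternatives it passed. With median centring the female pair stood at 0.037 and the male pair at -0.83, so the direction in the female pair depended on the dye correction.

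The promoter of Id4, the response gene past the threshold, held 1 copy of GGCGCC, whose reverse strand reads the same. Its window lies on chr13:48260866-48261115 on the plus strand, with the motif from 148 bases before the start.
Id4: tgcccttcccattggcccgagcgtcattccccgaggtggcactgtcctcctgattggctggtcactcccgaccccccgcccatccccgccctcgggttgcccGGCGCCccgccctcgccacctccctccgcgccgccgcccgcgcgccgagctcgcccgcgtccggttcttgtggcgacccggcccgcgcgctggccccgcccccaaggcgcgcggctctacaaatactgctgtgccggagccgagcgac
GGCGCC was present in 9.59% of all promoter windows of this length, and the Id4 window was 75.6% G and C against a median of 52.4% over all windows. Among the genes not past the threshold that had an entry, Id2 held GGCGCC from 231 bases before its start, Id3 held a T-box core from 50 bases before its start, and Bmp5 and Smad6 held neither motif. A match of this kind describes the letters and not a bound site.

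Id1, often used as a direct readout of BMP signalling, had log2 intensities of 14.69 and 14.69 in ureters labelled knockout, against 14.59 and 14.70 in controls. The log2 fold change was 0.10 (female pair) and -0.010 (male pair), a mean of 0.046 ± 0.079 (SD, n = 2 pairs), with a 95% interval from -0.12 to 0.21. Id3, the Id gene most like Id1 in its usual response, had log2 intensities of 16.97 and 17.04 in ureters labelled knockout, against 16.99 and 16.83 in controls. Its log2 fold change was -0.018 (female pair) and 0.20 (male pair), and the 95% interval of the mean ran from -0.097 to 0.28. For both genes the groups overlapped and the pairs had opposite signs.

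Smad6, the inhibitory SMAD that BMP signals induce, had log2 intensities of 12.87 and 12.67 in ureters labelled knockout, against 12.88 and 12.70 in controls. The pairs differed from each other more than the RNAs within a pair. The log2 fold changes were -0.0040 (female) and -0.029 (male), a mean of -0.017 ± 0.018 (SD, n = 2 pairs) with a 95% interval from -0.17 to 0.14. Of the 4 spots, 3 were above 0 on the female array and 1 on the male array, so the direction was not settled even within an array.

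**Figure D2:**
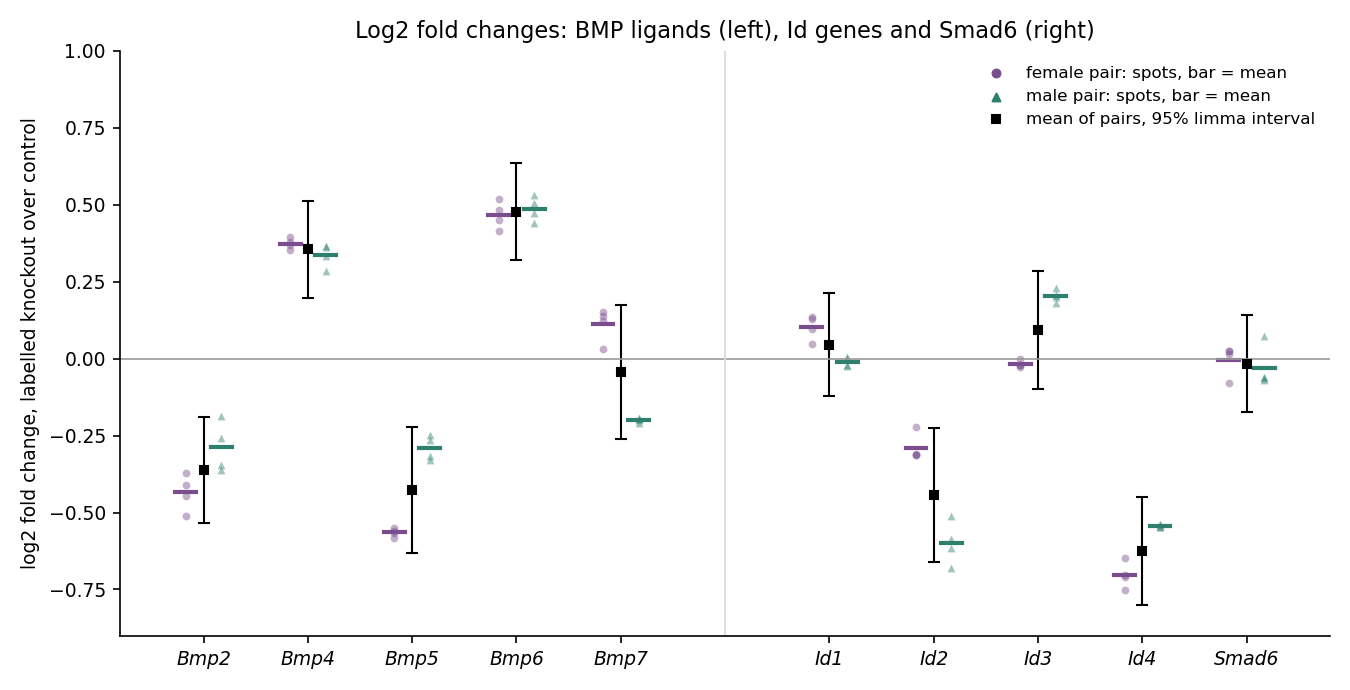
Log2 fold change, labelled knockout over control, of each gene on each array, with the 4 spots as points, the mean of a pair as a bar, and the mean of both pairs as a square with its 95% limma interval. Bmp4 and Bmp6 lie above 0 and Id4 below 0 in both pairs, while Bmp7, Id1 and Id3 change sign between pairs.

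Set side by side, the ligands spanned log2 fold changes from -0.43 to 0.48 and the response genes from -0.62 to 0.093, so the ranges overlapped. The rise of Bmp4 and Bmp6 was not accompanied by a rise of any response gene past the threshold. The median of the ligands was 0.11 (female pair) and -0.20 (male pair), both being the value of Bmp7. The median of the response genes was -0.018 (female pair) and -0.029 (male pair), against -0.0021 over the mean changes of all genes tested. Of the ligands 2 were higher and 2 lower in both pairs. Of the response genes 0 were higher and 3 (Id2, Id4 and Smad6) lower in both pairs. Smad6 counts here at only -0.0040 (female pair) and -0.029 (male pair), and its direction was not settled within an array. No test was made of the difference between the lists, because genes are not replicates of a condition.

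Of the 10 genes, 7 had the same sign in both pairs, where the share over all genes tested was 55.8%. The levels did not overlap between labelled knockout and control for 6, where the share was 35.6%. Bmp4 and Bmp6 lay above both controls, as did 17.9% of genes tested, and Bmp2, Bmp5, Id2 and Id4 lay below both, as did 17.7%. The unadjusted p was under 0.05 for 6, where the share was 14.1%. The adjusted p by limma was under 0.05 for 3, where the share was 3.68%. Bmp6 stood at percentile 98.8 and Bmp4 at percentile 97.7 of the log2 fold changes of all genes tested. At the other end Id4, Id2, Bmp5 and Bmp2 stood between percentile 0.776 and 2.13. The genes were chosen with earlier results of these data known, so these counts are descriptions.

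**Figure D3:**
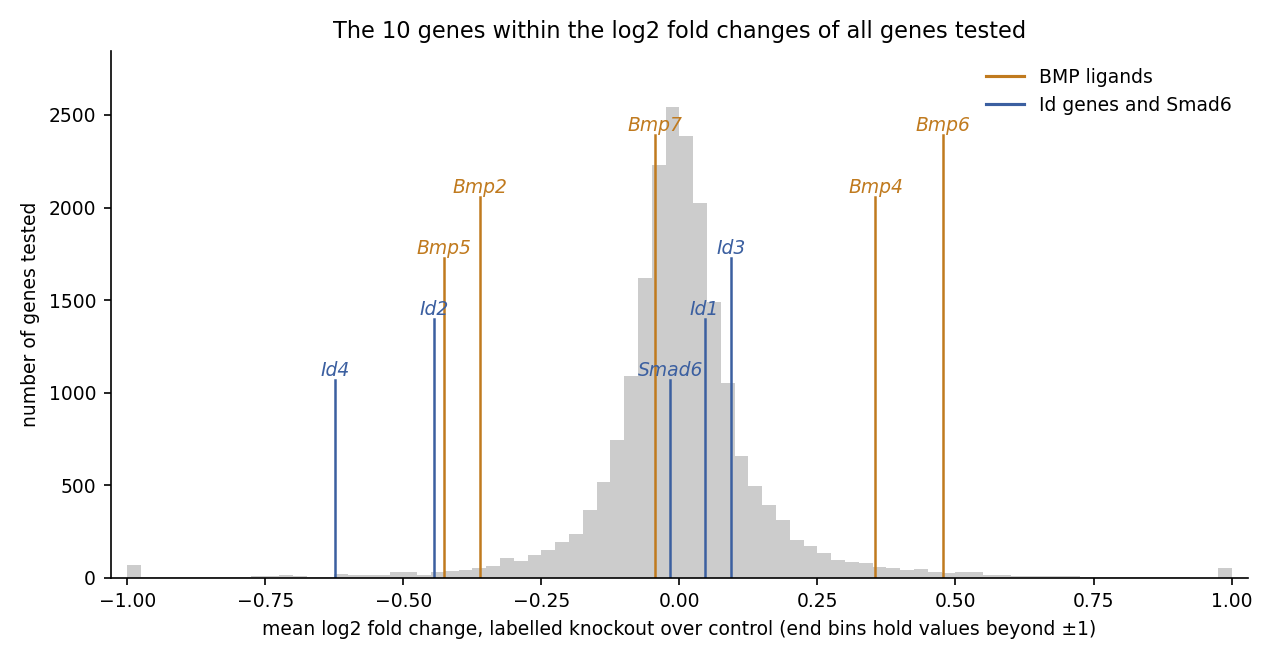
Number of genes tested by mean log2 fold change, labelled knockout over control, in grey, with the 5 ligands (orange) and 5 response genes (blue) marked by lines whose heights only separate the names. Id4, Id2, Bmp5 and Bmp2 lie in the lower tail and Bmp4 and Bmp6 in the upper tail, with the other 4 genes near the centre.

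The rest of the pathway was counted by role. Among 7 further ligands measured, 2 rose and 0 fell, where 1.87% of all genes tested were higher and 1.81% were lower. Gdf6, a BMP-type ligand of joints and skeleton, had log2 intensities of 9.06 and 9.08 in ureters labelled knockout, against 7.99 and 7.82 in controls. Gdf6 was at 1.17 ± 0.14 (SD over 2 pairs), with an adjusted p of 0.000840 by limma, above every one of the 5 ligands described so far, and was called under 12 of 12 alternatives. Gdf9, known as a growth factor of the oocyte, was at 0.35 ± 0.068 (SD, n = 2 pairs) with an adjusted p of 0.0499, and lost its call under 6 of 12 alternatives. Another 4 ligands (Bmp10, Bmp15, Gdf2 and Gdf7) were not well above background and were not tested.

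Among 11 receptors and co-receptors, 1 rose and 0 fell, where 3.68% of all genes tested were called. The receptor that rose, Bmpr1b, had log2 intensities of 9.71 and 9.99 in ureters labelled knockout, against 9.19 and 9.29 in controls. Its log2 fold change was 0.61 ± 0.13 (SD, n = 2 pairs, adjusted p = 0.00938, limma), and a dimmer probe for the gene gave 0.28. The call ended under 2 of 12 alternatives, those with median centring (adjusted p = 0.0787) and with the deposited value table. The related receptor Bmpr1a, at -0.0026, and the partner receptor Bmpr2, at -0.011, did not pass and were picked with their values in view.

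Of 7 SMADs and their ubiquitin ligases, 0 passed, and the values of largest size were those of the inhibitory Smad7, at -0.24 ± 0.20 (SD, n = 2 pairs), and of Smad9, at -0.13 ± 0.042. The other BMP response genes, 12 measured, also gave 0 calls, with a median of -0.065 and a range from -0.24 to 0.13. On that list Bambi, Dlx6, Tbx20 and Runx2 were not well above background and were not tested. Counting Smad7 in both lists, 1 SMAD and 3 response genes had an unadjusted p under 0.05, of 7 and 12 measured, where the share of all genes tested was 14.1%. Smad7 was at -0.11 (female pair) and -0.38 (male pair). The homeobox gene Dlx5 was at -0.21 ± 0.12 (SD, n = 2 pairs).

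Of 16 extracellular antagonists of BMPs and activins, 4 were called higher and 1 lower, where 3.68% of all genes tested were called. Over the alternatives these counts ran from 2 to 4 higher and from 0 to 1 lower. Grem1, which traps BMP2, BMP4 and BMP7, had log2 intensities of 8.86 and 8.51 in ureters labelled knockout, against 6.95 and 7.04 in controls, and the control was well above background on 1 of 2 arrays. It passed the filter on dim spots through the labelled knockout RNAs alone and did not pass the stricter filter, so its call is not support for the count. Fst, which binds activins, rose by 1.30 ± 0.22 (SD over 2 pairs, adjusted p = 0.00109 by limma). Sostdc1, an antagonist of BMP and WNT signals, fell to a log2 fold change of -0.50 ± 0.097 (adjusted p = 0.0169 by limma), and its call ended under 3 of 12 alternatives.

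Transcription factors of the helix-loop-helix family, which include the E proteins that Id proteins bind, gave 2 rises and 0 falls of 11. The share called over all genes tested was 3.68%. The rises were Hand2, at 0.70 ± 0.28 (SD, n = 2 pairs), and Hand1, at 0.55 ± 0.29, which are known in heart, limb and sympathetic neurons. The adjusted p of Hand1 was 0.0486 by limma, and its call ended under 7 of 12 alternatives. Hand1 stood at 0.34 (female pair) and 0.75 (male pair), so the value without the male pair is 0.34. The call of Hand2 ended under 3 of 12 alternatives, where its adjusted p reached 0.106, and the count of rises in the list ran from 0 to 2. The E proteins Tcf3, at -0.058, Tcf4, at 0.11, and Tcf12, at -0.16, did not pass and were named after their values were seen.

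**Figure D4:**
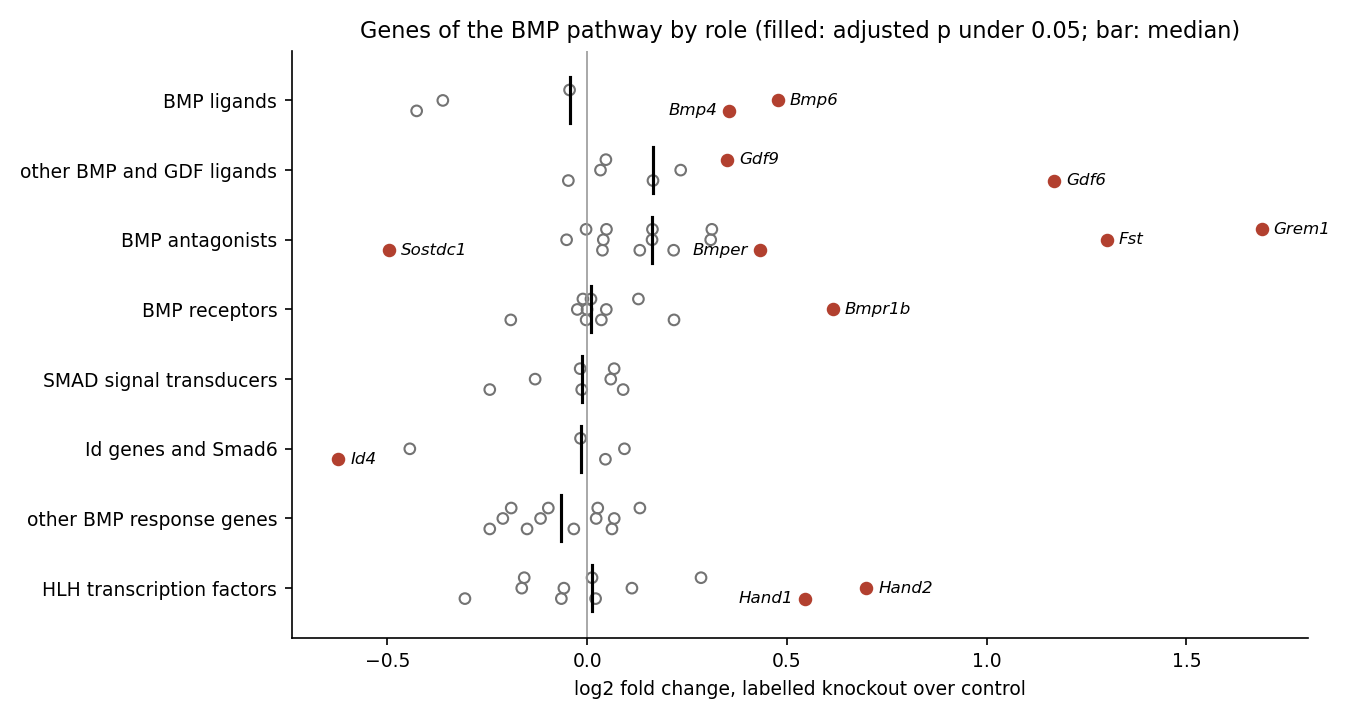
Log2 fold change, labelled knockout over control, of measured genes of 8 lists ordered by role, with genes past an adjusted p of 0.05 filled and named and the median of the whole list as a bar. Rises lie among ligands, antagonists, 1 receptor and the Hand factors, while Id4 is the filled gene below 0 among the response genes and Sostdc1 among the antagonists.

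Markers of some cell types in the ureter, mainly smooth muscle, moved beside these genes. In whole ureters fewer cells of a type and less RNA per cell cannot be told apart. Over all genes tested 3.68% were called and 14.1% had an unadjusted p under 0.05, against which the counts here are to be read. Of 14 smooth muscle markers 11 fell and 0 rose, and their summed linear intensity was 164899 and 169867 in ureters labelled knockout, against 340138 and 389375 in controls. Levels are not comparable between genes, so each sum here is weighted towards its brightest probes and does not measure the abundance of a cell type. Ureteric mesenchyme markers had a summed intensity between 464123 and 470172 in ureters labelled knockout and between 456341 and 462164 in controls, with 1 rise and 2 falls of 11 (from 0 to 1 and from 0 to 2 over the alternatives). Endothelial markers, a cell type in which Id1 and Id3 are well expressed, had 0 calls of 12 by limma (4 at an unadjusted p under 0.05) and a median of 0.14, with sums from 149312 to 170264 in ureters labelled knockout and from 140035 to 140105 in controls. For markers of neural crest, glia and neurons 3 of 14 rose (from 1 to 4 over the alternatives), with sums from 54472 to 57583 in ureters labelled knockout and from 54642 to 54754 in controls. Urothelial markers had 0 calls of 17 (5 at an unadjusted p under 0.05), with sums from 274974 to 280952 in ureters labelled knockout and from 290329 to 309957 in controls, and immune markers 0 of 13 (5 at an unadjusted p under 0.05), with sums from 54282 to 55547 in ureters labelled knockout and from 50329 to 50829 in controls. Lmod1 (smooth muscle) and Erg (endothelium) were not well above background. The part of these shifts in the values of the 10 genes was not tested.

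**Figure D5:**
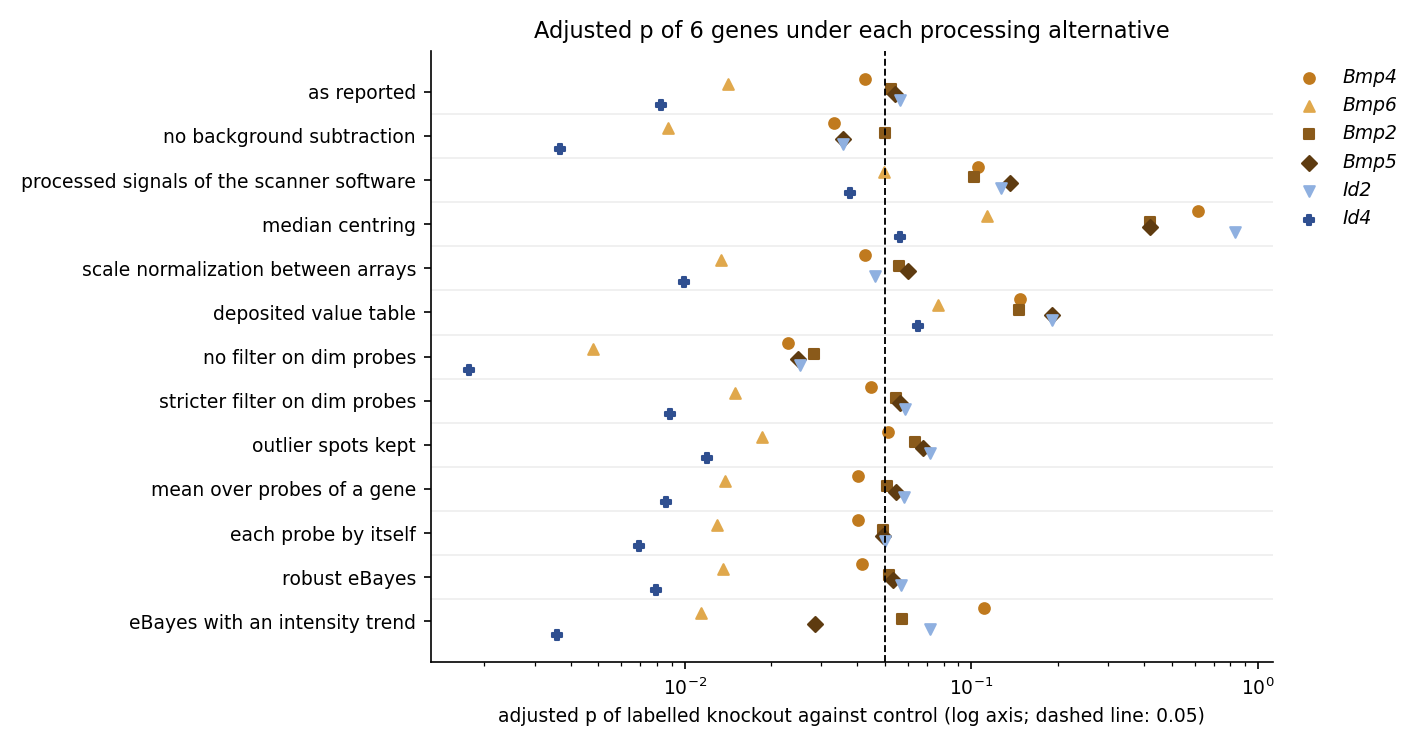
Adjusted p of the 6 genes with non-overlapping groups, which 35.6% of all genes tested also had. It is shown under the reported processing and 12 alternatives, on a log axis with a dashed line at 0.05. Id4 and Bmp6 lie left of the line except with median centring and the deposited value table, while Bmp4, Bmp2, Bmp5 and Id2 fall on both sides of it. With median centring these last genes lie far to the right, at adjusted p-values by limma from 0.420 to 0.828.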

How the data were processed

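RNA of ureters was measured on 2 two-colour arrays. Agilent Feature Extraction (version 10.7.3.1, per the submitters' processing notes) gave the deposited scanner files, which hold spot and local background intensity. They also deposited a value table of signed folds, read here as a score, whose making the headers do not describe. It ran as labelled knockout over control, since its log2 values correlated at 0.982 and 0.984 with the scanner software's processed intensities over 24839 probes.

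Mean intensities were corrected with normexp (offset 50) and normalized by loess within each array. Non-uniform spots were left out, and the 4 spots of a probe were averaged. Probes needed more than 0.5 of their spots well above background in the same group on both arrays. The brightest probe stood for a gene. Accessions were named through RefSeq (GRCm38.p6), which matched 28328 probes. Tests used limma 3.58.1 in R 4.3.3 over 20629 genes, with 1 residual and 5.24 prior degrees of freedom and Benjamini-Hochberg adjustment. The procedure was tested on simulated data.

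The members, lists and alternatives were chosen with earlier results of these data known. Named genes were the 10 members, Tbx2 and Tbx3, up to 4 called genes of each pathway list (or the 2 of largest change), and the 2 of largest change in each marker list. For 1 gene that this takes, values are not reported here.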

Additional observations from a re-analysis of the deposited data

Results flagged for a closer look

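In 6 named genes and 1 list median the sexes pointed opposite ways. There was 1 pair of each sex, so none of these differences was tested, and dye orientation changes with sex. Differences are female minus male, on the log2 scale. Bmp7 was at 0.11 (female) and -0.20 (male), which is 0.31 apart. Since Bmp7 was the median of the 5 ligands in both pairs, their median has that same difference of 0.31. Id1 stood at 0.10 and -0.010, or 0.11 apart. Id3 ran the other way, at -0.018 and 0.20, with a difference of -0.22. With median centring Id3 stood at 0.36 (female) and -0.069 (male), so this order depended on the dye correction. Markers of other cell types differed more. The nephron progenitor gene Six2 had values of -0.34 and 1.11 (difference -1.44), Wt1 had -0.032 and 0.79 (difference -0.82), and Egfl7, made by endothelium, had -0.20 and 0.85 (difference -1.06).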

How the results depend on the processing

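Of the 12 alternatives with a test, none changed the direction of Bmp2, Bmp4, Bmp5, Bmp6, Bmp7, Id1, Id2, Id3 or Id4, and Smad6 turned to 0.017 with median centring. The calls of Bmp6 (0.51 and 0.52) and Id4 (-0.59 and -0.61) ended with median centring and with the deposited value table. That of Bmp4 ended with the processed signals (0.36), the deposited table (0.36), outlier spots kept (0.36), an intensity trend (0.36) and median centring (0.41). Calls were gained by Bmp2 (-0.36) and Bmp5 (-0.43) without background subtraction, without a filter on dim probes and with each probe by itself, and by Bmp5 also with an intensity trend. Id2 (-0.44) gained one without background subtraction, without that filter and with scaling between arrays. Hence 1 ligand was higher with the processed signals, with outlier spots kept and with an intensity trend, and 0 with median centring and the deposited table. The count of ligands lower was 2 or 1 under the settings named for Bmp2 and Bmp5. The count of response genes lower was 2 under those named for Id2 and 0 under those that ended the call of Id4. The cause was not tested. The median of the response genes was 0.017 with median centring.

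Counts over all genes were 249 higher and 214 lower with the processed signals, 114 and 128 with median centring, and 113 and 124 with the deposited table. With 1 pair left out there is no test, and values ran from -0.20 to 0.11 for Bmp7, from -0.010 to 0.10 for Id1, from -0.018 to 0.20 for Id3 and from -0.029 to -0.018 for the median of the response genes. They ran from -0.20 to 0.85 for Egfl7, from -0.34 to 1.11 for Six2 and from -0.032 to 0.79 for Wt1. No separate paired analysis was added, because the reported test is already paired, on the ratio within each array, and leaves no further block to add. Only 2 arrays limit the precision.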
